A study of Mus musculus with 6 samples.

Results

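The transcription factors and co-regulators that hold Schwann cells in the myelinating, promyelinating or immature state were followed across 6 libraries of injured mouse sciatic nerve. The group was set by name and not by measured values. It holds 10 genes (Sox10, Egr2, Pou3f1, Sox2, Nab1, Nab2, Tead1, Zeb2, Id2 and Id4) of 52999 gene symbols in the deposited tables, and 73 transcripts carry their names. All 10 had counts in every library, and the filter that removes genes with few counts kept them all. C57BL/6 mice of 6 to 8 weeks had the left sciatic nerve cut at mid-thigh, and the stump on the side of the dorsal root ganglia was taken 24 h later. Each library was made from poly-A RNA of 2 pooled mice, with 3 libraries from females and 3 from males. The comparison available is male against female stumps. None of the values is a response to the cut, since uninjured nerves were not analysed here.

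Schwann cells are the glia of peripheral nerve. Sox10 is required throughout the lineage, Pou3f1 (also known as Oct6) and Egr2 (Krox20) switch on the myelin programme in turn, and Nab1 and Nab2 bind Egr2 as co-regulators. Zeb2 represses genes that keep the cell immature, Sox2 and the Id proteins oppose differentiation, and Tead1 is the DNA-binding partner of the Hippo effectors Yap1 and Wwtr1 (Taz). After injury adult Schwann cells lower the myelin programme and take on a repair state. Several of these genes are also used by other cells of the nerve, among them Zeb2, Tead1 and the Id genes.

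The libraries held 49158283 to 69848769 estimated counts. Of 18396 genes tested with edgeR, 975 passed an adjusted p under 0.1 between the sexes. Female 3 stood apart from the other females. It held 139 counts of the Y-linked gene Ddx3y and 147 of Eif2s3y, which had 0 counts in females 1 and 2. Kdm5d and Uty, also Y-linked, had 43, 51 and 83 and 18, 37 and 79 counts in females 1, 2 and 3. The X-linked gene Xist stood at 628, 724 and 418 CPM in females 1, 2 and 3. In males 1, 2 and 3 it stood at 2.86, 0.106 and 0.312 CPM, highest in male 1. The first principal component of all genes placed female 3 at -7.55, where females 1 and 2 had -61.5 and -46.0 and males had 35.9 to 42.1. The differences of the factors and the counts of the gene lists are therefore given with and without female 3. Leaving it out raised the number of genes past the threshold to 2609, and leaving out female 1 or male 3 lowered it to 1 and 7.

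Levels of the factors are compared with each other as TPM, a share of all transcripts that is corrected for transcript length. Averaged over the 6 libraries, Sox10 was the most abundant at 163 TPM (110.2 to 213), and Id2 and Egr2 followed at 133 TPM (89.9 to 168) and 109 TPM (79.9 to 127). Zeb2 stood at 59.2 TPM, Nab1 at 46.7 TPM, Tead1 at 45.6 TPM and Nab2 at 30.5 TPM. The lowest were Sox2 at 11.0 TPM, Pou3f1 at 6.80 TPM and Id4 at 6.40 TPM. Neighbours in this order were separated at 3 steps, where every library of the higher gene lay above every library of the lower one: Egr2 over Zeb2, Tead1 over Nab2, and Nab2 over Sox2. At the other steps the ranges overlapped, and Sox10 exceeded Id2 in 3 of 6 libraries. The order also differed by sex, since in females Id2 (156 ± 20.9 TPM, SD, n = 3) came before Sox10 (129 ± 18.6 TPM), whereas in males Sox10 (198 ± 13.5 TPM) came before Egr2 (123 ± 5.04 TPM) and Id2 (109 ± 25.6 TPM). Summed over the 10 genes the level was 575 to 614 TPM in females and 604 to 642 TPM in males, and these ranges overlapped.

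**Figure D1:**
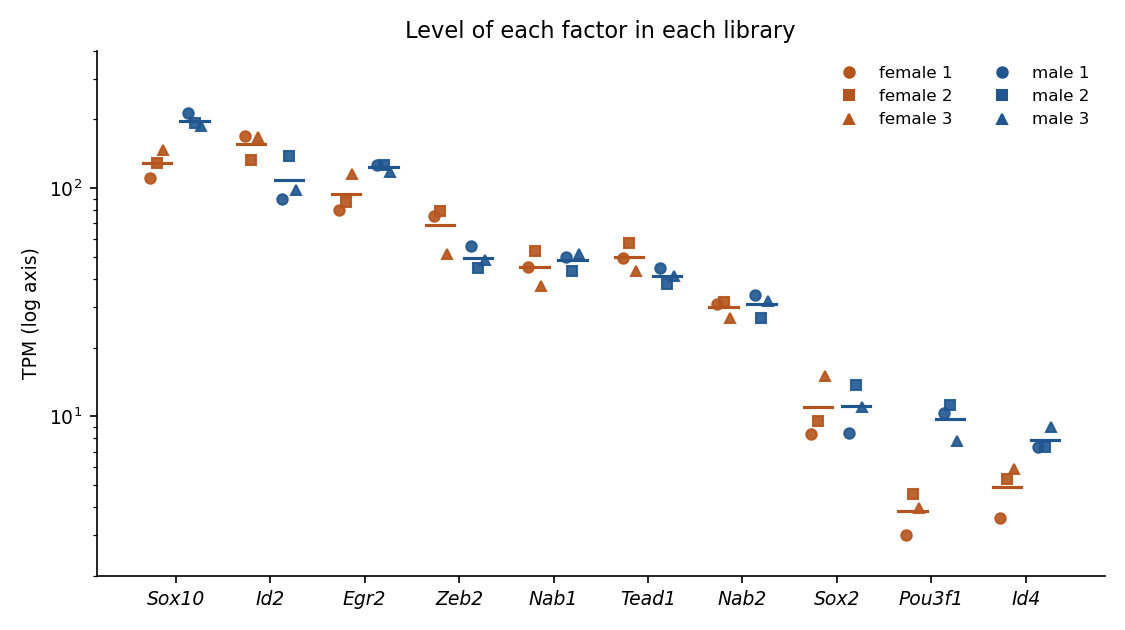
TPM of the 10 factors, drawn on a logarithmic axis. Points are single libraries (females in orange, males in blue, symbols for the library number) and short lines are the means by sex. Sox10, Id2 and Egr2 lie at 79.9 TPM or more in every library and Id4 and Pou3f1 at 11.2 TPM or less, and the points of the sexes do not overlap for Sox10, Egr2, Pou3f1 and Id4.

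Differences between the sexes were tested on counts scaled to a common library size by the trimmed mean of M values (CPM), which compares 1 gene across libraries. Of the 10 factors 1, Pou3f1, passed the threshold, against 5.30% of all genes tested. At an unadjusted p under 0.05 there were 4 of 10 (Pou3f1, Sox10, Id4 and Zeb2), against 20.7% of all genes. All libraries of 1 sex lay above those of the other in 5 of 10, against 25.5% of all genes. These were Sox10, Pou3f1, Nab1 and Id4 in favour of males (13.9% of all genes) and Zeb2 in favour of females (11.6% of all genes). The median log2 fold change (male minus female) of the factors was 0.09, and that of all genes was -0.03. A lower or higher level in a whole-nerve library can come from the number of cells or from RNA per cell, and these cannot be told apart here.

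**Figure D2:**
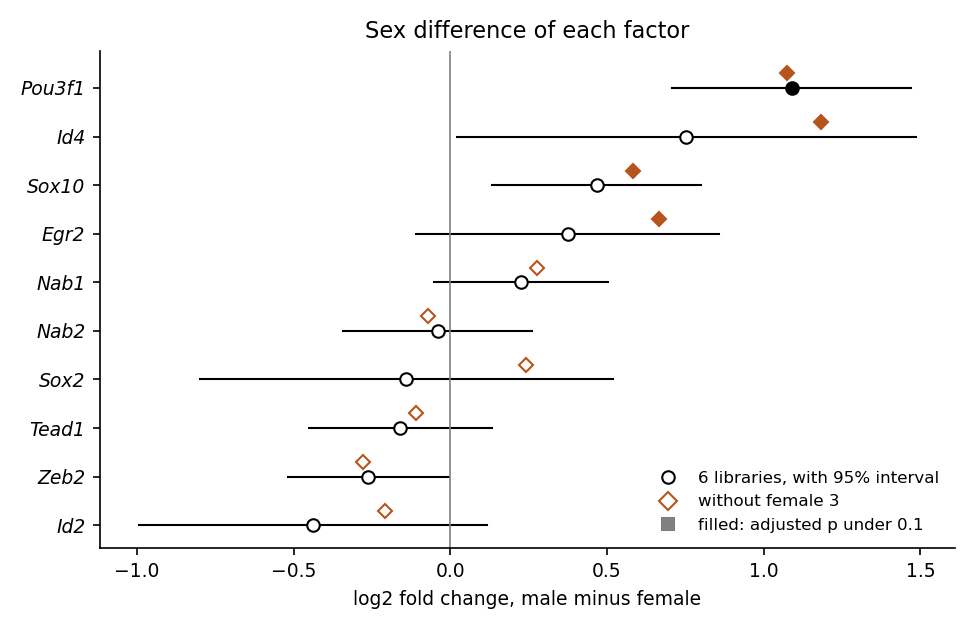
Log2 fold change of each factor, male minus female, with its 95% interval (black circles, 6 libraries) and the estimate without female 3 (orange diamonds), where filled symbols mark an adjusted p under 0.1. Pou3f1 is filled in both fits, whereas Id4, Sox10 and Egr2 are filled only without female 3, and the estimate for Sox2 lies on opposite sides of 0 in the 2 fits.

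Pou3f1 (ENSMUSG00000090125.4, chr4:124550600-124554448 on the plus strand of GRCm39), the POU-domain factor of the promyelinating stage, was higher in males. Its CPM was 6.82, 8.65 and 7.46 in females 1, 2 and 3 and 18.1, 17.3 and 13.4 in males 1, 2 and 3. All males lay above all females. Its log2 fold change was 1.09 ± 0.16 (SE), which is 2.13-fold (95% interval 1.63 to 2.77), with an adjusted p of 0.0357. The gene is a single exon with 1 listed transcript, so no assignment among isoforms enters its value, and 349 to 1217 counts stood behind it. Without female 3 the log2 fold change was 1.07 (adjusted p = 0.0468). The call was lost without female 1 (log2 fold change 1.01, adjusted p = 0.163) and without male 3 (1.21, adjusted p = 0.105).

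Sox10 (ENSMUSG00000033006.11, chr15:79039108-79049469 on the minus strand), the factor that defines the glial lineage, stood at 237, 247 and 301 CPM in females 1, 2 and 3 and at 411, 331 and 345 CPM in males 1, 2 and 3. The sexes did not overlap, and female 3 was the female library nearest to the males. A log2 fold change of 0.47 ± 0.14, or 1.38-fold with a 95% interval of 1.10 to 1.74, did not pass (adjusted p = 0.135). Without female 3 it was 0.58 and passed (adjusted p = 0.0632, where 13.7% of all genes passed). By the DESeq2 Wald test it was 0.47 and passed as well (adjusted p = 0.0360, where 13.3% of all genes passed). In TPM the females held 110.2, 128 and 147 and the males 213, 193 and 187, again without overlap.

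Egr2 (ENSMUSG00000037868.16, chr10:67371305-67378018 on the plus strand), the zinc finger factor that drives myelin genes together with Sox10, stood at 145, 158 and 253 CPM in females and at 254, 240.0 and 225 CPM in males. Female 3 lay among the males, and females 1 and 2 lay below all of them. In TPM the females held 79.9, 87.0 and 115 and the males 127, 126 and 118, without overlap. For Egr2 the log2 fold change was 0.37 ± 0.21, with a fold interval of 0.927 to 1.81 (adjusted p = 0.348). Without female 3 it was 0.67 and passed the threshold (adjusted p = 0.0435). Without female 1 it was 0.22 and without female 2 it was 0.27.

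Nab1 (ENSMUSG00000002881.15, chr1:52494147-52539838 on the minus strand) stood at 77.1, 96.7 and 96.1 CPM in females and at 107, 97.4 and 111 CPM in males. The sexes did not overlap, but male 2 lay only just above female 2. In TPM they overlapped, and female 2 was the highest library at 52.8. For Nab1 the log2 fold change was 0.23 ± 0.12, with a fold interval of 0.965 to 1.42 (adjusted p = 0.325), and without female 3 it was 0.28 (adjusted p = 0.223). Nab2 (ENSMUSG00000025402.13, chr10:127496786-127504458 on the minus strand) stood at 60.1, 57.9 and 55.0 CPM in females and at 64.4, 46.2 and 57.7 CPM in males. Male libraries were both the highest and the lowest for Nab2. Its log2 fold change was -0.04 ± 0.13, with a fold interval of 0.789 to 1.20 (adjusted p = 0.885), without female 3 it was -0.07 and did not pass, and the sign changed without male 2 (0.11). Nab2 overlaps the genes Stat6 and Nemp1 on the other strand, and the strand setting of the quantification is not given in the sources used here.

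Promoter windows of Egr2 and its partners are shown because Egr proteins, Pou3f1 and Tead1 bind short sequences of known form. They run from 250 bases before to 50 bases after a RefSeq start, come from RefSeq (GRCm38.p6) and were placed on GRCm39 by an exact match. The Egr2 window shown (chr10:67373449-67373748, plus strand) is 1 of several of the gene. It lies at the start that the GENCODE M39 annotation gives Egr2-201, the transcript with the largest share of Egr2 TPM. The Nab1 window is chr1:52539558-52539857 and the Nab2 window is chr10:127502523-127502822, both on the minus strand. Neither lies within 10 bases of the start that M39 gives a Nab1 or Nab2 transcript quantified here. The versions of Egr2-201, Nab1-201 and Nab2-201 quantified here are not in M39, so their own starts were not placed. Capitals mark matches on either strand to GCGTGGG (EGR), ATGCAAAT (POU octamer) and GGAATG (TEAD).
Egr2: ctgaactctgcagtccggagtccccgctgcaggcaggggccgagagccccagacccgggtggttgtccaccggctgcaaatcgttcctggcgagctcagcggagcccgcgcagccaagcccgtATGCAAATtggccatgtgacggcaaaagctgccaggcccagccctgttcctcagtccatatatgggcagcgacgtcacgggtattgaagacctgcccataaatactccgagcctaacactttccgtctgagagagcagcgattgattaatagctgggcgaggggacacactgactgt
Nab1: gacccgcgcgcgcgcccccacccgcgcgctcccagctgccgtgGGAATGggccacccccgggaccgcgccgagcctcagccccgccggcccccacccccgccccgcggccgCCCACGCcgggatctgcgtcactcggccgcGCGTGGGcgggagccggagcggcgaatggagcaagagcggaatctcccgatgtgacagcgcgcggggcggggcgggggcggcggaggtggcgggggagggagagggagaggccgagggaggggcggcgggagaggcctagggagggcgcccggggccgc
Nab2: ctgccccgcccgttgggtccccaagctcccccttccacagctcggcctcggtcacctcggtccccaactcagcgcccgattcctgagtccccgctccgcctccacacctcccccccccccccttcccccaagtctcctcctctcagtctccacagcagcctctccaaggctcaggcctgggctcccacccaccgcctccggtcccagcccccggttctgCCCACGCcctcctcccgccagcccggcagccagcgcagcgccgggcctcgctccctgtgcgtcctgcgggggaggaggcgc
The Egr2 window holds the octamer 127 bases before the start, a sequence found in 1.74% of all 32851 windows of this length. The Nab1 window holds the EGR sequence at -139 on the reverse strand and at -109 on the forward strand, and a TEAD match at -207. The Nab2 window holds the EGR sequence at -31 on the reverse strand. Of all windows 5.04% held the EGR sequence and 14.7% the TEAD sequence. These shares were not matched for GC content, which was 60.0%, 81.7% and 74.0% in the Egr2, Nab1 and Nab2 windows shown. The windows were also searched for ACAANG (SOX), CACCTG (ZEB) and CANNTG (E-box, which includes the ZEB form), present in 41.2%, 20.2% and 72.3% of all windows. The windows shown held no SOX or ZEB match, and those of Egr2 and Nab1 held 1 E-box each. Another Egr2 window (chr10:67373146-67373445) held a SOX match at -113 and a TEAD match at -127. A Zeb2 window held a SOX match at -62 and a TEAD match at -157. The Sox2 window held a SOX match at -206 and the Id4 window a TEAD match at -226. A match is a description of letters and no measure of binding. Windows were found for 7 of the 10 genes, and Sox10, Pou3f1 and Tead1 had none in that table.

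The factors that hold back differentiation were Sox2, Id2 and Id4. Sox2 (ENSMUSG00000074637.8, chr3:34704554-34706610 on the plus strand), a factor of immature Schwann cells, stood at 10.2, 10.9 and 20.0 CPM in females and at 9.84, 15.2 and 12.3 CPM in males. The highest library was female 3 and the lowest was male 1. The log2 fold change was -0.14 ± 0.28, with a fold interval of 0.574 to 1.43 (adjusted p = 0.814), and without female 3 it was 0.24 (adjusted p = 0.491). The gene is a single exon inside the long noncoding gene Sox2ot on the same strand, which stood at 30.5 to 55.2 CPM, so the split of reads between both rests on Salmon's model.

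Id2 (ENSMUSG00000020644.10, chr12:25143798-25147282 on the minus strand), a dominant-negative partner of basic helix-loop-helix factors, stood at 90.4, 72.5 and 123 CPM in females and at 56.9, 92.5 and 61.9 CPM in males. Male 2 lay above females 1 and 2, and the other males lay below all females. For Id2 the log2 fold change was -0.44 ± 0.24, with a fold interval of 0.502 to 1.09 (adjusted p = 0.339), and without female 3 it was -0.21 (adjusted p = 0.595).

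Id4 (ENSMUSG00000021379.3, chr13:48414558-48419502 on the plus strand), a protein of the same class, stood at 5.08, 8.10 and 13.4 CPM in females and at 13.5, 14.9 and 16.6 CPM in males. Female 3 (13.42) lay just under male 1 (13.47), so the separation of the sexes was narrow. The log2 fold change was 0.75 ± 0.32, or 1.69-fold with an interval of 1.01 to 2.80 (adjusted p = 0.231). Without female 3 it was 1.18 and passed (adjusted p = 0.0501). Thus Id2 and Id4 had log2 fold changes of opposite sign, and only that of Id4 passed in any of the 14 alternative fits.

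Zeb2 (ENSMUSG00000026872.19, chr2:44873644-45007464 on the minus strand), the repressor of genes that oppose myelination, was the factor whose female libraries all lay above the males in CPM. It stood at 260.2, 282 and 260.0 CPM in females and at 244, 207 and 217 CPM in males. In TPM the sexes overlapped, with female 3 at 51.4 and male 1 at 55.8. The log2 fold change was -0.26 ± 0.11, with a fold interval of 0.698 to 0.997, and it did not pass (adjusted p = 0.235). Without female 3 it was -0.28 (adjusted p = 0.192). Zeb2 is also a factor of macrophages, and the 6 macrophage markers had log2 fold changes of -1.27 to 0.06 with 5 of 6 negative and 0 past the threshold by edgeR (2 at an unadjusted p under 0.05, 2 by DESeq2 and 0 by limma-voom). Without female 3, 3 of the 6 passed (Adgre1, Csf1r and Mrc1).

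Tead1 (ENSMUSG00000055320.19, chr7:112278522-112506014 on the plus strand) stood at 233, 285 and 286 CPM in females and at 260.2, 226 and 235 CPM in males. Males 2 and 3 lay near female 1, and the sexes overlapped. The log2 fold change was -0.16 ± 0.13, with a fold interval of 0.732 to 1.10 (adjusted p = 0.509), and without female 3 it was -0.11 (adjusted p = 0.650).

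Levels relative to Sox10 in the same library set each factor against the lineage factor itself. The log2 of TPM over Sox10 TPM was higher in all males than in all females for Pou3f1, at -5.19, -4.82 and -5.22 in females and -4.37, -4.10 and -4.59 in males. It was lower in all males than in all females for Egr2, Sox2, Nab2, Tead1, Zeb2 and Id2. For Zeb2 it was -0.55, -0.69 and -1.52 in females and -1.93, -2.11 and -1.95 in males, a mean difference of -1.08. For Id2 it was 0.61, 0.04 and 0.19 in females and -1.24, -0.49 and -0.92 in males. In TPM, Id2 thus exceeded Sox10 in every female library, only narrowly in female 2 (132 against 128 TPM), and in no male one. Nab1 and Id4 overlapped, with differences of -0.51 and 0.08. The 7 separated ratios had an exact two-sided permutation p of 0.1, the smallest that 3 against 3 libraries allow, and 0.129 after Benjamini-Hochberg adjustment over the 9 ratios. All ratios share the Sox10 value of their library, which was itself higher in every male. A gene at equal TPM in both sexes therefore has a lower ratio in males. The TPM of Sox2, Nab2, Tead1, Zeb2 and Id2 overlapped between the sexes, with male to female ratios of 1.01, 1.04, 0.824, 0.721 and 0.696. That of Egr2 was higher in every male. The share of all genes separated in such a ratio was not computed, so the count of 7 has no background. On the CPM scale all 9 differences kept their sign, but the sexes were no longer separated for Egr2 (-0.05 in place of -0.22, p = 0.9 by the exact permutation test) and Sox2 (-0.56, p = 0.3). On that scale the difference of Nab1 was -0.24 and that of Id4 was 0.39.

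**Figure D3:**
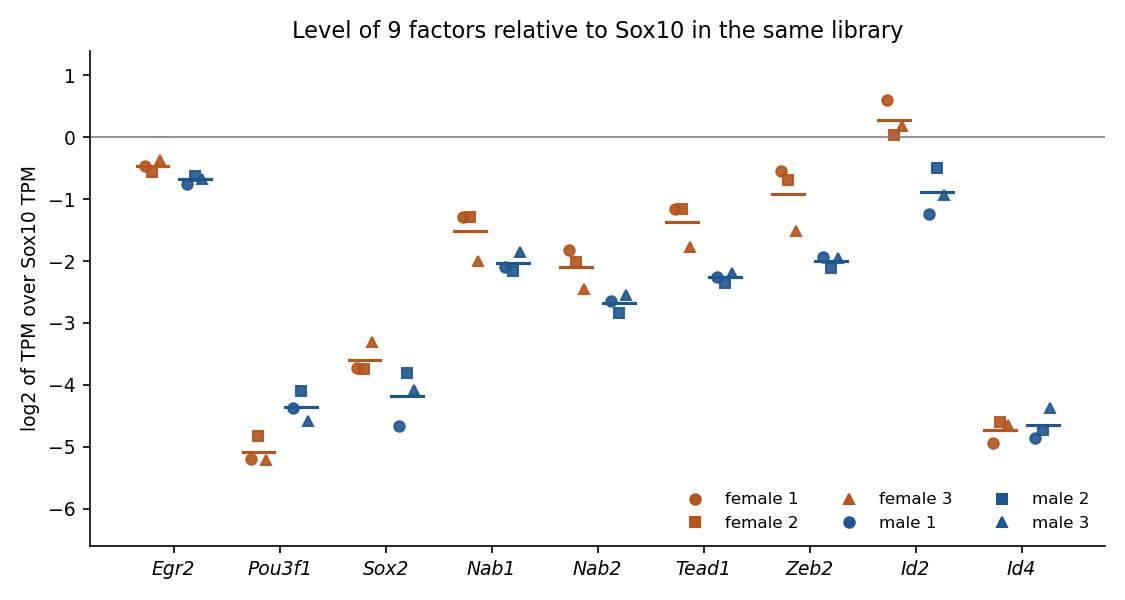
Log2 of each factor's TPM over the Sox10 TPM of the same library, drawn for single libraries (points) with the mean of each sex as a short line (orange for females, blue for males). Sox10 TPM was itself higher in every male than in every female. On the TPM scale drawn here the sexes are separated for 7 of the 9 factors (for Egr2 and Sox2 not on the CPM scale), upward in males for Pou3f1 and downward for Egr2, Sox2, Nab2, Tead1, Zeb2 and Id2, and female 3 is the female library nearest to the males for Nab1, Nab2, Tead1 and Zeb2.

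TPM and CPM did not give the same size of difference for every factor. Salmon divides the counts by an effective length, and this length differed between libraries for the same transcript. For Pou3f1-201 it was 3250, 2811 and 2252 bases in females and 2341, 2065 and 2377 bases in males, a male to female ratio of 0.816, and the TPM ratio was 2.55 against a CPM ratio of 2.13. For genes with several transcripts the length was averaged over them, weighted by TPM, so differences in transcript shares enter it too. For Sox10 the ratio of these averaged lengths was 0.884, and the TPM ratio was 1.54 against 1.38. For Zeb2 it was 1.12, and the TPM ratio was 0.721 against 0.834. For Id2 it was 1.06, and the TPM ratio was 0.696 against 0.738. The order of Id2 and Sox10 within a library rests on these lengths too. Pou3f1 had a GC content of 63.9% and Zeb2-212 of 40.6%. A fit with these lengths as an offset gave log2 fold changes of 1.38 for Pou3f1 (adjusted p = 0.0413), 0.64 for Sox10 (adjusted p = 0.126) and -0.41 for Zeb2 (adjusted p = 0.159), and it turned the sign of Sox2 (0.01) and Nab2 (0.09). The calls of the 10 factors were the same in that fit.

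For each factor the same transcript held the largest share of its TPM in all 6 libraries. Sox10-201 held 90.2% to 96.3% of Sox10 TPM, Id2-201 95.7% to 98.2% of Id2 TPM, and Nab1-201 81.0% to 91.6% of Nab1 TPM. Pou3f1, Sox2 and Id4 have 1 listed transcript each. Zeb2 was split among several of its 30 listed transcripts. Zeb2-212, of 9124 bases and 11 exons, held 40.9%, 43.7% and 53.0% of Zeb2 TPM in females and 52.3%, 69.6% and 72.3% in males. Female 3 lay just above male 1, and the exact two-sided permutation p was 0.2. Zeb2-201, of 5335 bases and 10 exons, held 11.2%, 15.5% and 28.5% in females and 20.4%, 6.46% and 3.81% in males. Zeb2-212 starts at position 45007407 and Zeb2-201 at 45000527, further along the gene, so these differ in their first exons and in length.

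Egr2-201 held 59.4% to 83.8% of Egr2 TPM, and Egr2-203, which starts at position 67374513, held 2.28%, 4.17% and 12.8% in females and 6.24%, 27.5% and 12.4% in males. Male 2 was the highest library for Egr2-203 and the lowest for Egr2-201. Tead1-202 held 60.5% to 87.4% of Tead1 TPM and Tead1-216 held 3.38% to 22.7%, and Nab2-201 and Nab2-202 held 68.3% to 84.9% and 11.3% to 24.7% of Nab2 TPM. Of the 11 shares compared, that of Id2-201 did not overlap between the sexes, by 1.37 percentage points (p = 0.1, exact permutation test). No share had an adjusted value under 0.6. Splits among overlapping transcripts are estimates of Salmon's model, and their error within a library is not in the tables used here.

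**Figure D4:**
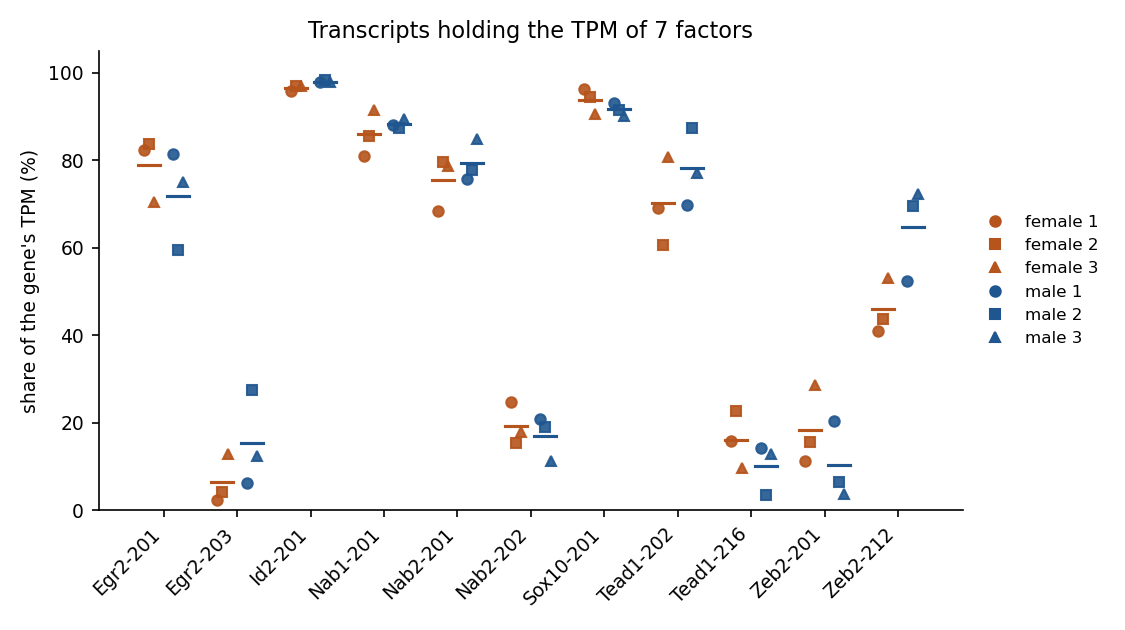
Share of a gene's TPM held by each transcript with a mean share of 10% or more, for the 7 factors with more than 1 listed transcript, drawn for single libraries (points) with the mean of each sex as a short line. Zeb2-212 lies at 40.9% to 53.0% in females and 52.3% to 72.3% in males, and the sexes overlap in each share other than that of Id2-201.

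Genes that these factors act on or work with were taken from 7 lists of 90 genes, of which 84 were tested. Of 16 myelin genes that Egr2 and Sox10 bind or drive, 9 passed higher in males and 0 higher in females, where 3.84% and 1.46% of all genes passed in these directions. Of the 16 log2 fold changes 15 were positive, with a median of 0.89. Ncmap, Pllp, Fa2h and Cldn19, of noncompact myelin, membrane sorting, myelin lipid synthesis and the tight junctions of the sheath, had log2 fold changes of 0.95 to 1.17 (adjusted p = 0.0357 each). The exception in sign was Gjb1, the gap junction protein connexin 32, at -0.19 (adjusted p = 0.612). These myelin genes were already known from these libraries to be higher in males, so the count adds no separate support. Leaving out female 1 or male 3 left 0 of the 9 calls, and leaving out female 3 gave 13.

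Of 8 brakes on myelination and Zeb2-repressed genes 7 were tested, and Ednrb passed, higher in females. Ednrb, the endothelin receptor gene that Zeb2 represses, stood at 67.7, 47.7 and 62.5 CPM in females and at 29.1, 40.5 and 30.6 CPM in males (log2 fold change -0.83 ± 0.17, adjusted p = 0.0626). All females lay above all males. Its call was lost without female 1 (adjusted p = 0.220), without male 1 (0.140) and without male 3 (0.232). Jun, which drives the repair state, had a log2 fold change of -0.23 ± 0.19 (adjusted p = 0.523), Notch1, a receptor that maintains immaturity, -0.34 ± 0.15 (adjusted p = 0.241), and the Notch effectors Hey2 and Hes1 0.60 ± 0.24 and 0.32 ± 0.13 (adjusted p = 0.219 and 0.212). Without female 3, 2 of the list passed, Ednrb (-0.79, adjusted p = 0.0735) and Notch1 (-0.46, adjusted p = 0.0899). Pax3 held 0 to 4 counts a library and was not tested.

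Of 14 repair and immature Schwann cell genes 1 passed. It was Olig1, with 1, 1 and 2 counts in females and 48, 50 and 67 in males (adjusted p = 0.0319, and 0.145 without female 1). Olig1 is also a factor of oligodendrocytes. Ngfr (p75), L1cam and Gfap, classic markers of immature and repair cells, had log2 fold changes of -0.10, 0.02 and -0.07 (adjusted p = 0.748, 0.952 and 0.866), and the axonal and Schwann cell growth protein gene Gap43 had 0.74 ± 0.20 (adjusted p = 0.102). Tnc, an extracellular matrix glycoprotein gene, had -0.58 ± 0.20 (adjusted p = 0.169), Cdh2, the gene of N-cadherin, 0.42 ± 0.15 (adjusted p = 0.178), and the factor gene Runx2 -0.51 ± 0.19 (adjusted p = 0.195). At an unadjusted p under 0.05 there were 5 of the list (these 3, Olig1 and Gap43), by DESeq2 3 passed and by limma-voom 2. Without female 3, 2 passed, Olig1 and Gap43 (0.95, adjusted p = 0.0435). The median of the list was -0.08.

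Of 16 partner factors 1 passed, Sox11, with 13, 3 and 14 counts in females and 33, 62 and 51 in males (log2 fold change 2.27 ± 0.57, adjusted p = 0.0924). That call was lost in 7 of 14 alternatives, among them limma-voom (adjusted p = 0.105) and library size alone (0.106), and without female 1 (0.230), female 2 (0.163), male 2 (0.154) or male 3 (0.279). Pou3f2 (Brn2), the close relative that overlaps in function with Pou3f1, stood at a mean of 8.96 CPM in females and 11.2 CPM in males (log2 fold change 0.32 ± 0.31, adjusted p = 0.593). Yap1 and Wwtr1, the partners of Tead1, had log2 fold changes of 0.37 ± 0.14 and 0.06 ± 0.15 (adjusted p = 0.193 and 0.850). Foxd3, a neural crest factor, had 0.52 ± 0.21 (adjusted p = 0.211), and Smarca4 (Brg1), a chromatin remodeller that works with Sox10, -0.25 ± 0.11 (adjusted p = 0.228). Hdac1 and Hdac2, histone deacetylases that work with Sox10, had -0.21 and -0.03 (adjusted p = 0.250 and 0.915). At an unadjusted p under 0.05 there were 4 of the list (Sox11, Yap1, Foxd3 and Smarca4), and 1 passed by DESeq2 and 0 by limma-voom. Without female 3, 5 passed, all higher in males: Sox11, Yap1 (0.51, adjusted p = 0.0578), Foxd3 (0.78, adjusted p = 0.0501), Nr2f1 (0.40, adjusted p = 0.0890) and Pou3f2 (0.75, adjusted p = 0.0912).

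Of 13 paralogues of the factors 8 were tested and 0 passed by edgeR. At an unadjusted p under 0.05 there were 3 (Sox8, Zeb1 and Egr3), by DESeq2 1 passed (Sox8) and by limma-voom 0. Sox8, of the same subfamily as Sox10, stood at 8.28, 9.24 and 5.53 CPM in females and at 17.2, 10.5 and 15.3 CPM in males, without overlap (log2 fold change 0.90 ± 0.25, adjusted p = 0.107). Zeb1 had the same sign as Zeb2, at -0.29 ± 0.10 (adjusted p = 0.161), with all females above all males. Id1 and Id3 had -0.13 and 0.17 (adjusted p = 0.818 and 0.406), and Egr3 -0.47 (adjusted p = 0.217). Sox1, Sox3, Egr4, Pou3f3 and Pou3f4 held at most 27 counts in a library and were not tested. Without female 3 the filter kept Pou3f3, and it was the 1 paralogue that passed (adjusted p = 0.0579), with 1, 0 and 1 counts in females and 10, 27 and 25 in males.

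Of 7 Hippo and TEAD targets 1 passed, Axl, a receptor tyrosine kinase gene, which was higher in females at 386 to 400 CPM against 267 to 313 CPM in males (log2 fold change -0.46 ± 0.11, adjusted p = 0.0882). The call was lost in 7 of 14 alternatives, among them each single library left out other than female 3 (adjusted p = 0.116 to 0.309). Without female 3 it was again the 1 gene of the list that passed (-0.47, adjusted p = 0.0762). Ccn1 and Ccn2, the usual readouts of TEAD activity, had 0.25 ± 0.18 and -0.24 ± 0.23 (adjusted p = 0.468 and 0.583). Of 16 upstream signals and receptors 0 passed by edgeR and 0 by limma-voom, and Adam22, which binds the Schwann cell ligand Lgi4, was the 1 gene at an unadjusted p under 0.05 and by DESeq2. Without female 3, 0 of the 16 passed by edgeR. Erbb2 and Erbb3, which receive neuregulin, had -0.02 ± 0.13 and 0.08 ± 0.18 (adjusted p = 0.950 and 0.832), and Adgrg6 (Gpr126), which raises cAMP ahead of Pou3f1 and Egr2, had 0.14 ± 0.12 (adjusted p = 0.573).

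**Figure D5:**
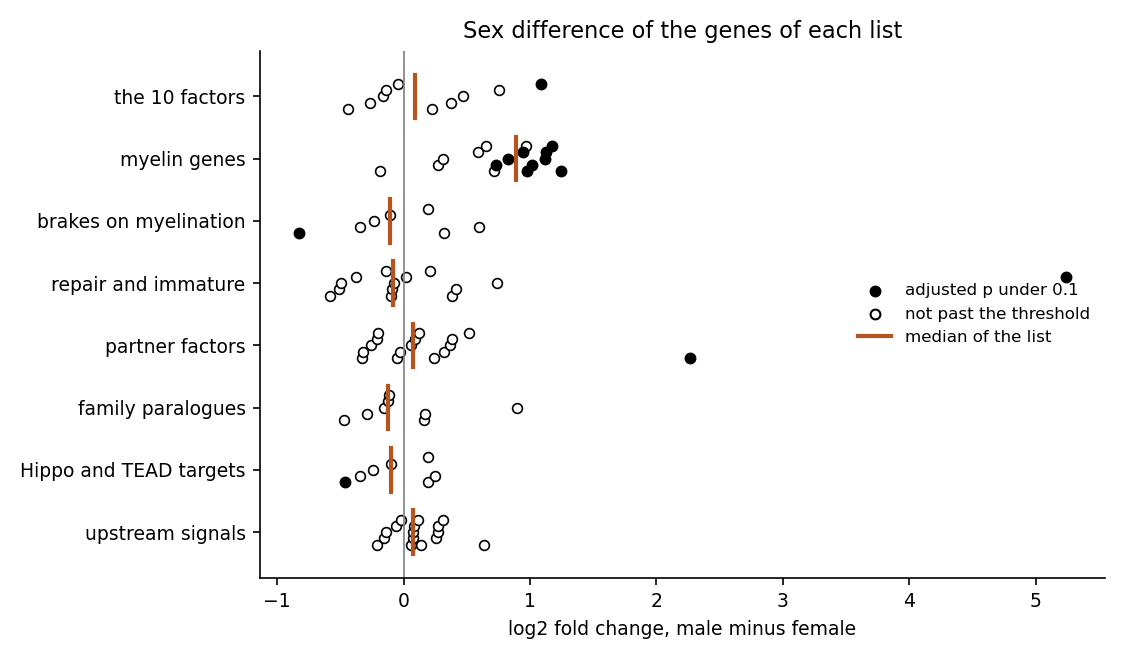
Log2 fold change, male minus female, of each tested gene of the factors and of 7 lists around them, with filled points for an adjusted p under 0.1 and an orange line at each list's median. The myelin genes have a median of 0.89 and 9 filled points, and the other lists have medians between -0.12 and 0.08 with at most 1 filled point each.

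Markers of the cells in the stump are given beside these results. Schwann cell markers had counts in every library. The 7 Schwann cell markers summed to 8628 to 11911 TPM in females and 20691 to 25379 TPM in males. Of the 7 markers 4 passed higher in males (among them S100b, Prx and Gjc3). The log2 fold change was 1.11 for S100b (adjusted p = 0.0357), 0.08 for Erbb3 (adjusted p = 0.832) and 0.01 for Cdh19 (adjusted p = 0.985). Markers of central nervous system cells were higher in males in part: 3 of 7 oligodendrocyte markers tested (Mobp, Mog and Ermn), 3 of 6 astrocyte markers (Aqp4, Slc1a2 and Slc6a11) and 5 of 6 neuronal markers passed. The other 3 astrocyte markers, Gfap among them (-0.07), had negative log2 fold changes, as had 1 oligodendrocyte and 0 neuronal markers. Gfap, also a marker of repair Schwann cells, held 12.0 to 18.9 TPM of the astrocyte sum. Olig2 and Ermn had 0 counts in every female library. The summed level was 400 to 474 TPM in females and 413 to 485 TPM in males for the oligodendrocyte list, which holds Mag and Gjb1 of peripheral myelin too, 26.1 to 31.2 and 28.0 to 37.9 TPM for the astrocyte list, and 5.19 to 6.91 and 13.5 to 26.9 TPM for the neuronal list. Without female 1 0 of these marker genes passed, and without male 3 1 oligodendrocyte and 2 astrocyte markers did. Within males, Mobp stood at 6.32, 18.4 and 19.4 CPM in males 1, 2 and 3. Without female 3, 4 oligodendrocyte, 3 astrocyte and 6 neuronal markers passed. Sox10, Sox2 and Id4 are used by central glia as well. The part of central nervous system RNA in their values, and in those of the other factors including Pou3f1, was not tested.

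Of the other lists, 0 of 6 macrophage, 0 of 5 neutrophil, 0 of 5 endothelial, 0 of 5 fibroblast, 0 of 4 perineurial, 0 of 5 mural, 0 of 5 adipocyte and 0 of 5 T and NK cell markers passed by edgeR. At an unadjusted p under 0.05 these counts were 2, 0, 1, 2, 1, 0, 2 and 0 in this order, by DESeq2 they were 2, 0, 0, 1, 1, 0, 1 and 0, and by limma-voom 0 in each list. Without female 3, where 13.7% of all genes passed, they were 3, 0, 2, 0, 0, 0, 3 and 0. The fast fibre myosin gene Myh4 passed higher in females (1 of 6 skeletal muscle markers by edgeR and 0 by limma-voom). Adipocyte markers summed to 106 to 937 TPM in females and 61.9 to 355 TPM in males, muscle markers to 21.3 to 383 and 5.08 to 470 TPM, and macrophage markers to 539 to 993 and 488 to 871 TPM. Female 3 held the lowest female sum for each of these 3 lists. Their part in the differences of the factors was not tested.

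The genes whose pattern was most like that of a factor were named by Pearson's r of log2 CPM over the 6 libraries, among the 10075 protein-coding genes that averaged at least 10 CPM. They were Kdelr3 for Sox10 (r = 0.996), Selenok for Egr2 (0.996), Ing4 for Pou3f1 (0.998), Xkr4 for Zeb2 (0.994), Dtymk for Id2 (0.999) and Skp1 for Id4 (0.997). For Nab1 it was Idi1 (0.992), for Nab2 Sdha (0.987), for Sox2 8030462N17Rik (0.988) and for Tead1 Tmpo (0.983). With 6 libraries of both sexes, 58 to 547 genes per factor had r above 0.9, so these values are a description of the libraries, which share depth, sex and female 3. None of these 10 genes passed the threshold between the sexes.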

How the data were processed

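The series measured poly-A RNA (stranded TruSeq libraries, paired-end) in 6 pools of mouse nerve, grouped by the sex the labels give, and the pools came from separate animals. The submitters' processing notes name Trimmomatic 0.39, Salmon 1.5.2 and MultiQC 1.9. The sources used here differ on the Salmon version and on the GENCODE release of the transcripts. The authors deposited, per transcript, Salmon's estimated counts (not normalised), TPM (which add up to 1 total in all libraries) and effective length. Estimated counts were summed per gene symbol, which joined more than 1 identifier for 93 symbols, and rounded. Genes were filtered with filterByExpr, scaled by the trimmed mean of M values and tested by sex with the quasi-likelihood test of edgeR 4.0.16 in R 4.3.3, with Benjamini-Hochberg adjustment over all 18396 genes and a threshold of 0.1. The SE was the log2 fold change divided by the square root of F, and intervals are 95%. P-values measure the spread between pools.

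Ratios to Sox10 and transcript shares were compared by exact two-sided permutation tests (scipy 1.17.1). All 73 member transcripts were kept, and shares are given for those with a mean of 10% or more. Gene positions come from GENCODE M39 on GRCm39. The 10 genes, the gene lists, the markers and the motifs were chosen with earlier results of these data known. Named list genes were those counted in a number of 5 or fewer and up to 4 a list by smallest p. Some others, named for their known role, were chosen after their values were seen, and some list genes are not reported here by name. Like-pattern genes were ranked by Pearson's r of log2 CPM with a prior count of 2. Counts differed between all pairs of libraries of 1 sex beyond sampling noise. The scripts were tested on simulated data. Alternatives were DESeq2 size factors, library size alone, no filter, a CPM of 1 or more in 3 libraries, DESeq2 1.42.0, limma-voom (limma 3.58.1), a transcript length offset, a replicate block, each library left out and a threshold of 0.05.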

Additional observations from a re-analysis of the deposited data

How the results depend on the processing

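Of the 10 factors, Nab1, Tead1, Zeb2 and Id2 kept their sign and stayed short of the threshold in all 14 alternatives. Pou3f1 kept its sign in all 14 and its call in 11. Without a filter on low counts 1614 genes passed (1069 higher in males, 545 in females), and at an adjusted p under 0.05 279 passed. The DESeq2 Wald test called 2440 genes (1411 and 1029), 2 factors, with Sox10 at a log2 fold change of 0.47, and 21 genes of the lists against 13. The transcript length offset turned the sign of Sox2 to 0.0071 and of Nab2 to 0.0908. The cause was not tested. Leaving out 1 library at a time gave 1 to 2609 genes (1 to 1346 higher in males and 0 to 1263 in females), 0 to 4 factors, 0 to 24 list genes and 0 to 13 myelin genes. The log2 fold changes ranged over 0.36 to 0.58 for Sox10, 0.22 to 0.67 for Egr2, 1.01 to 1.21 for Pou3f1, -0.32 to 0.24 for Sox2, -0.15 to 0.11 for Nab2 and 0.47 to 1.18 for Id4. The ratio of Id4 to Sox10 differed by -0.0585 to 0.184, the share of Nab1-201 by -0.34 to 4.95 points and that of Nab2-202 by -4.21 to 0.68 points. With 3 libraries a sex no permutation test can go below 0.1, and Id4, Sox2 and Pou3f1 rest on 260 to 1260 counts a library.

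Samples with the same replicate number did not deviate together (correlations of -0.04, -0.30 and -0.30), so the numbers do not pair them. A fit with the replicate block called 56 genes (48 higher in males and 8 in females), 0 factors, 1 list gene (Olig1) and 0 myelin genes, with Pou3f1 at 1.08 (adjusted p = 0.117) and 2973 genes at an unadjusted p under 0.05. By a replicate block no other factor moved across the threshold.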
